A study of Mus musculus with 12 samples.

Results

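The comparison described here sets CD62Llo PSGL1lo cells against CD62Llo PSGL1hi cells, 3 arrays each, chosen by the sample titles from the 12 arrays of the series. Both populations were antigen-experienced CD4 T cells (TCRb+ CD4+ B220- CD44+) sorted directly from the spleens of female MRL/Faslpr mice aged 16 to 24 weeks, and both had lost CD62L. They differed in the gate on PSGL1 alone. They are called PSGL1lo and PSGL1hi cells below. MRL/Faslpr is a lupus-prone strain in which the gene of the death receptor Fas is mutated. All 4 sorted populations carry it, the CD62Lhi PSGL1hi CD44+ cells of the aged mice and the naive CD62Lhi CD44lo cells of mice aged 6 to 8 weeks included. Whether a sort drew on 1 mouse or several is not stated in the sources used here. All 18193 genes with a named probe set were compared.

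PSGL1, the product of Selplg, is a mucin-like protein on leukocytes that binds P-, E- and L-selectin once its sugars and tyrosines have been modified, and it also binds the chemokines CCL19 and CCL21. CD4 T cells that help B cells move into follicles, where the repressor BCL6 holds their programme and interleukin 4 and interleukin 21 act on B cells. Cells that stay in the effector programme instead use the repressor Blimp-1 (Prdm1), T-box factors and receptors for inflamed tissue. In lupus-prone mice, B cell help outside follicles by CD4 T cells low in PSGL1 has been linked to autoantibody production.

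Values are ratios. The authors divided each probe set's signal by its median over the 12 arrays, so a ratio of 1 is the middle array, and ratios of different genes cannot be ranked against each other. Differences are given on the log2 scale, PSGL1lo minus PSGL1hi, ± the standard error of the fit with n = 3 arrays per population. A gene was called at an adjusted p under 0.05 (limma, Benjamini-Hochberg over all genes). The titles call the 3 arrays of a population technical replicates and the design text describes separate sorts, so the p-values reflect array-to-array spread only, which may be technical. For the PSGL1hi samples the description field gives a different gate, and here the titles and design text decided. The RNA comes from bulk populations, in which fewer cells of a type and less RNA per cell cannot be told apart.

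One array stood apart. PSGL1lo replicate 2 had the lowest median ratio of the 12 arrays (0.967, against 0.986 to 1.022 for the others), and the median gene lay 0.12 below the mean of the other PSGL1lo arrays on the log2 scale (log2 difference of -0.12). Counts of higher and lower genes over all genes, and for several gene lists, are therefore given with and without it. Counts of other lists, printed only with this array, can move as well. For proteases and inhibitors they were 14 lower and 6 higher with the array and 12 and 7 without it. The gate itself was visible in the RNA: Selplg ratios were 0.118, 0.127 and 0.153 in the PSGL1lo arrays and 0.977, 0.906 and 1.09 in the PSGL1hi arrays, and Selplg fell by 2.91 ± 0.12 on the log2 scale (adjusted p = 9.09e-11). Cd44, which marks antigen experience, differed by 0.20 ± 0.12 and Cd4 by -0.01 ± 0.10 on the log2 scale, and neither was called. Fas ratios were 1.31, 1.41 and 1.15 against 0.903, 1.22 and 0.875, with PSGL1hi replicate 2 above PSGL1lo replicate 3. The log2 difference was 0.38 ± 0.14 (adjusted p = 0.124), and it was called (adjusted p = 0.027) in a fit that leaves out the naive arrays and takes the replicate number of the titles as a block, named the replicate block below. CD62L is encoded by a gene not analysed here.

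Of 18193 genes, 1951 were called (10.7%). In PSGL1lo cells 828 genes were higher (4.55%) and 1123 were lower (6.17%). Without PSGL1lo replicate 2 the split turned, with 1142 higher and 908 lower among 2050 called genes, and 1621 of the 1951 genes passed again on the same side. Large differences lay mostly on the lower side: 94 called genes were lower and 40 were higher by at least 2 on the log2 scale, which is 4-fold. At 4 or more on the log2 scale there were 16 lower genes and 2 higher genes. The median difference over all genes was 0.01 on the log2 scale.

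**Figure D1:**
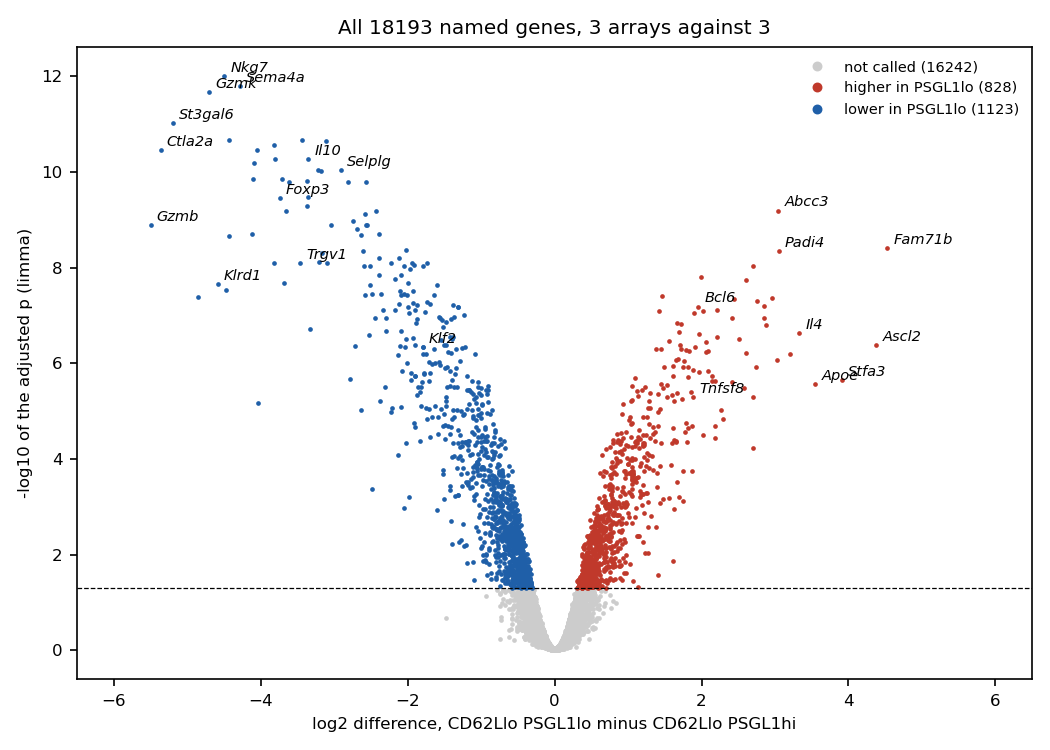
The log2 difference of each gene (horizontal axis, PSGL1lo minus PSGL1hi) against the negative log10 of its adjusted p from limma (vertical axis), for 18193 genes; the dashed line is the threshold of 0.05. The 1123 lower genes reach further from 0 than the 828 higher genes, with Gzmb at -5.50 and Fam71b at 4.53.

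The other populations place the called genes. Among the 828 higher genes, 572 (69.1%) had all 3 PSGL1lo arrays above all 9 other arrays (4.13% of all genes), and in 40 (4.8%) the PSGL1hi arrays were below all 9 others (1.03% of all genes). Among the 1123 lower genes, 584 (52.0%) had all PSGL1lo arrays below all 9 others (4.57% of all genes), and in 136 (12.1%) the PSGL1hi arrays stood above all 9 others (1.17% of all genes). The call itself uses PSGL1lo and PSGL1hi arrays, so these shares describe the called genes and test nothing: of all 1949 genes whose PSGL1lo arrays were above the PSGL1hi arrays, 752 were above all 9 others, and of all 2196 below them, 832 were. The naive cells in these counts came from younger mice.

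The 4 genes next described are among the largest rises (Fam71b, Ascl2) and the largest falls (Gzmb, Nkg7), and their promoters are shown so that genes moving in opposite directions can be read side by side. Each is the 250 bases before the first start site listed by RefSeq (GRCm38.p6), written 5′ to 3′ on the gene's strand. Capitals mark matches, on either strand, to 6 short motifs: CAGCTG and CACCTG (E-boxes, bound by basic helix-loop-helix factors such as ASCL2 and, for CACCTG, also by ZEB factors), GGTGTGA (the core of a T-box site), TGTGGT (a RUNX site), TGANTCA (an AP-1 site) and GGGTGTGG (a KLF site, found in none of the 4). They lie at chr11:46404478-46404727 on the plus strand (Fam71b), chr7:142969265-142969514 on the minus strand (Ascl2), chr14:56262335-56262584 on the minus strand (Gzmb) and chr7:43436888-43437137 on the plus strand (Nkg7).
Fam71b: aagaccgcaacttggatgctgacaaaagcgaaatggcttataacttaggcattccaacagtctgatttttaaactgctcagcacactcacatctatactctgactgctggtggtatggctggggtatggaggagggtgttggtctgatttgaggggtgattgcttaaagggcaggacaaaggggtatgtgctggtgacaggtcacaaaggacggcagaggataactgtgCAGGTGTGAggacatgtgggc
Ascl2: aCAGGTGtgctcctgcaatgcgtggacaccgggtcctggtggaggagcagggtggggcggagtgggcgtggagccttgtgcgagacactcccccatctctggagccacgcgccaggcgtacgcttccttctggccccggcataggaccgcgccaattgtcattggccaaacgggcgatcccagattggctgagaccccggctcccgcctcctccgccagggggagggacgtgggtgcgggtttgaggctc
Gzmb: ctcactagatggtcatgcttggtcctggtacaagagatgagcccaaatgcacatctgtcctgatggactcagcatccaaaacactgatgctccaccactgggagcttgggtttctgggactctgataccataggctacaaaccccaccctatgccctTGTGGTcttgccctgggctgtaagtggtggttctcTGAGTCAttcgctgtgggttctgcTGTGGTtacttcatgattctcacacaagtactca
Nkg7: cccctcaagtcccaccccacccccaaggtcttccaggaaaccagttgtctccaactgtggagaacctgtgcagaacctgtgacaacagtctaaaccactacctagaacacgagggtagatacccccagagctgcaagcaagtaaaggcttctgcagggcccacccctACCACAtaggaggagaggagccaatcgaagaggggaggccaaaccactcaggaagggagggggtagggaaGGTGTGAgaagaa

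The Gzmb promoter held TGTGGT at 93 and at 34 bases and TGANTCA at 58 bases before the start site, and the Nkg7 promoter held ACCACA, its reverse complement, at 83 and GGTGTGA at 13 bases before it. In the Fam71b promoter CAGGTG, the reverse complement of CACCTG, and GGTGTGA overlapped, starting 21 and 19 bases before the start site. The Ascl2 promoter held CAGGTG at 249 bases before it. Over 14452 tested genes with a promoter in the table, TGTGGT was present in 11.7% of promoters, in 13.2% of those of lower genes and in 10.6% of those of higher genes. GGTGTGA was in 3.1% of all promoters, 3.5% of those of lower and 2.5% of those of higher genes. The same 3 shares were 12.5%, 12.3% and 13.9% for CAGCTG, 16.9%, 16.6% and 15.7% for CACCTG, 5.6%, 5.8% and 4.0% for TGANTCA, and 3.5%, 4.3% and 3.8% for GGGTGTGG. Promoters were found for 16 of the 20 largest falls and 16 of the 20 largest rises. TGTGGT was in 6 of the falls and 3 of the rises, CACCTG in 0 and 4, TGANTCA in 4 and 1, GGTGTGA and GGGTGTGG each in 2 and 1, and CAGCTG in 0 and 1. A match describes letters only.

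Fam71b had ratios of 34.1, 16.7 and 24.2 in the 3 PSGL1lo arrays and of 0.978, 1.55 and 0.74 in the PSGL1hi arrays, and rose by 4.53 ± 0.25 on the log2 scale, 23.1-fold (adjusted p = 3.90e-09). Ascl2, a basic helix-loop-helix factor that promotes Cxcr5 expression and the follicular helper fate, was at 50.5, 29.4 and 37 against 1.33, 4.26 and 1.07 and rose by 4.38 ± 0.36 (20.8-fold). Every PSGL1lo array of both genes was above every other array, and PSGL1hi replicate 2 was the highest PSGL1hi array in both. All 20 of the largest rises, from 2.60 ± 0.22 to 4.53 ± 0.25 on the log2 scale, had the PSGL1lo arrays above the other 9, with adjusted p at most 6.01e-05.

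Several of the largest rises encode secreted or cell-surface proteins. Apoe, which carries lipids in lipoproteins, was at 23.3, 6.85 and 11.4 against 1.47, 1.1 and 0.702 (log2 difference 3.55 ± 0.35). Sostdc1, a secreted antagonist of BMP and Wnt ligands, was at 22.2, 14.7 and 19.7 against 1.5, 3.84 and 1.42 (3.21 ± 0.28). In both the groups were far apart, and PSGL1lo replicate 2 was the lowest of its 3 arrays. Npnt, an extracellular matrix ligand of integrins, rose by 2.76 ± 0.19 on the log2 scale, on 1 of its other 4 probe sets as well. Flrt2, a membrane protein with leucine-rich repeats that takes part in cell guidance, rose by 2.70 ± 0.28, with ratios of 12.3, 12.8 and 10.9 against 1.6, 3.55 and 1.1.

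Proteases, other enzymes and transporters were also among them. Stfa3, a cystatin-family inhibitor of cysteine proteases, was at 34.2, 14.3 and 25.5 against 1.05, 3.05 and 1.16 (log2 difference 3.91 ± 0.38). Lgmn, the asparaginyl endopeptidase legumain, was at 3.26, 2.68 and 2.54 against 0.414, 0.631 and 0.376 (2.61 ± 0.16). In Lgmn the PSGL1hi arrays were below those of both CD62Lhi PSGL1hi cells (0.686, 0.822 and 0.835) and naive cells (1.38, 1.27 and 1.17). Padi4, which converts arginine to citrulline on histones, rose by 3.05 ± 0.17, and the transporters Abcc3 (organic anions) and Slc1a4 (neutral amino acids) rose by 3.05 ± 0.14 and 2.74 ± 0.25. Gna14, a Gq-family G protein subunit, rose by 3.02 ± 0.27, while its genomic neighbour Gnaq differed by 0.13 ± 0.10 and was not called. Fabp7, a fatty acid binding protein best known from brain, was at 8.03, 2.75 and 13.3 against 0.991, 1.01 and 1.05 and rose by 2.71 ± 0.36. Cxxc5, Ica1l and Zcchc12 rose by 2.88 ± 0.22, 2.96 ± 0.20 and 2.71 ± 0.16.

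The transcriptional regulators among these 20 rises included, besides Ascl2, Cebpa, Cxxc5 and Pou2af1. Cebpa, a basic leucine zipper factor best known from myeloid cells and liver, was at 9.15, 5.73 and 8.87 against 0.897, 1.44 and 0.968 (log2 difference 2.85 ± 0.21), and the related Cebpd rose by 2.18 ± 0.21, with no change called on its other probe set. Pou2af1, the B cell coactivator OBF-1 that helper T cells also express, was at 3.79, 2.86 and 3.51 against 0.413, 0.937 and 0.438 (2.60 ± 0.22). Ighv14-2, an immunoglobulin heavy chain variable segment, rose by 2.85 ± 0.20. Of the 17 B cell markers described further on, 3 were higher and 2 lower, and their mean ratio was 1.07 to 1.37 in PSGL1lo and 0.929 to 1.04 in PSGL1hi arrays; their part in these rises was not tested.

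Gzmb, the apoptosis-inducing protease granzyme B, had ratios of 0.0567, 0.101 and 0.0447 in the PSGL1lo arrays and 2.5, 3.5 and 2.73 in the PSGL1hi arrays and fell by 5.50 ± 0.28 on the log2 scale, 45.3-fold (adjusted p = 1.26e-09). Its CD62Lhi PSGL1hi ratios of 2.08, 4.02 and 1.9 were on the level of the PSGL1hi cells and its naive ratios of 0.0476, 0.0485 and 0.0412 on that of the PSGL1lo cells. That pattern was common: in 13 of the 20 largest falls the PSGL1lo arrays were not below all 9 other arrays, and in all 13 naive arrays reached down into the PSGL1lo range or below it. In the other 7 the PSGL1lo arrays lay below the naive arrays too. St3gal6 was one of these, at 0.0583, 0.0541 and 0.0492 against 2.23, 1.57 and 2.2 in PSGL1hi and 0.679, 0.524 and 0.637 in naive cells.

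Nkg7, a membrane protein of cytotoxic granules, was at 0.106, 0.1 and 0.0969 against 2.45, 2.09 and 2.34 and fell by 4.50 ± 0.11 on the log2 scale (adjusted p = 9.64e-13). The 3 arrays of each population lay close together and far from the other 3. Sema4a, a semaphorin that acts in T cell priming, was at 0.06, 0.0656 and 0.056 against 1.12, 1.06 and 1.37, below the naive arrays (1.35, 1.27 and 1.19) as well. Il18r1, the binding chain of the interleukin 18 receptor, was at 0.125, 0.139 and 0.144 against 2.25, 1.87 and 1.68, again below naive cells (0.812, 0.796 and 0.77). Neb, which encodes the giant muscle protein nebulin, was at 0.13, 0.139 and 0.111 against 2.92, 1.79 and 1.96 (log2 difference -4.11 ± 0.17). Ctla2a and Ctla2b, inhibitors related to the propeptide of cathepsins, fell by 5.37 ± 0.19 and by 3.83 ± 0.22.

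**Figure D2:**
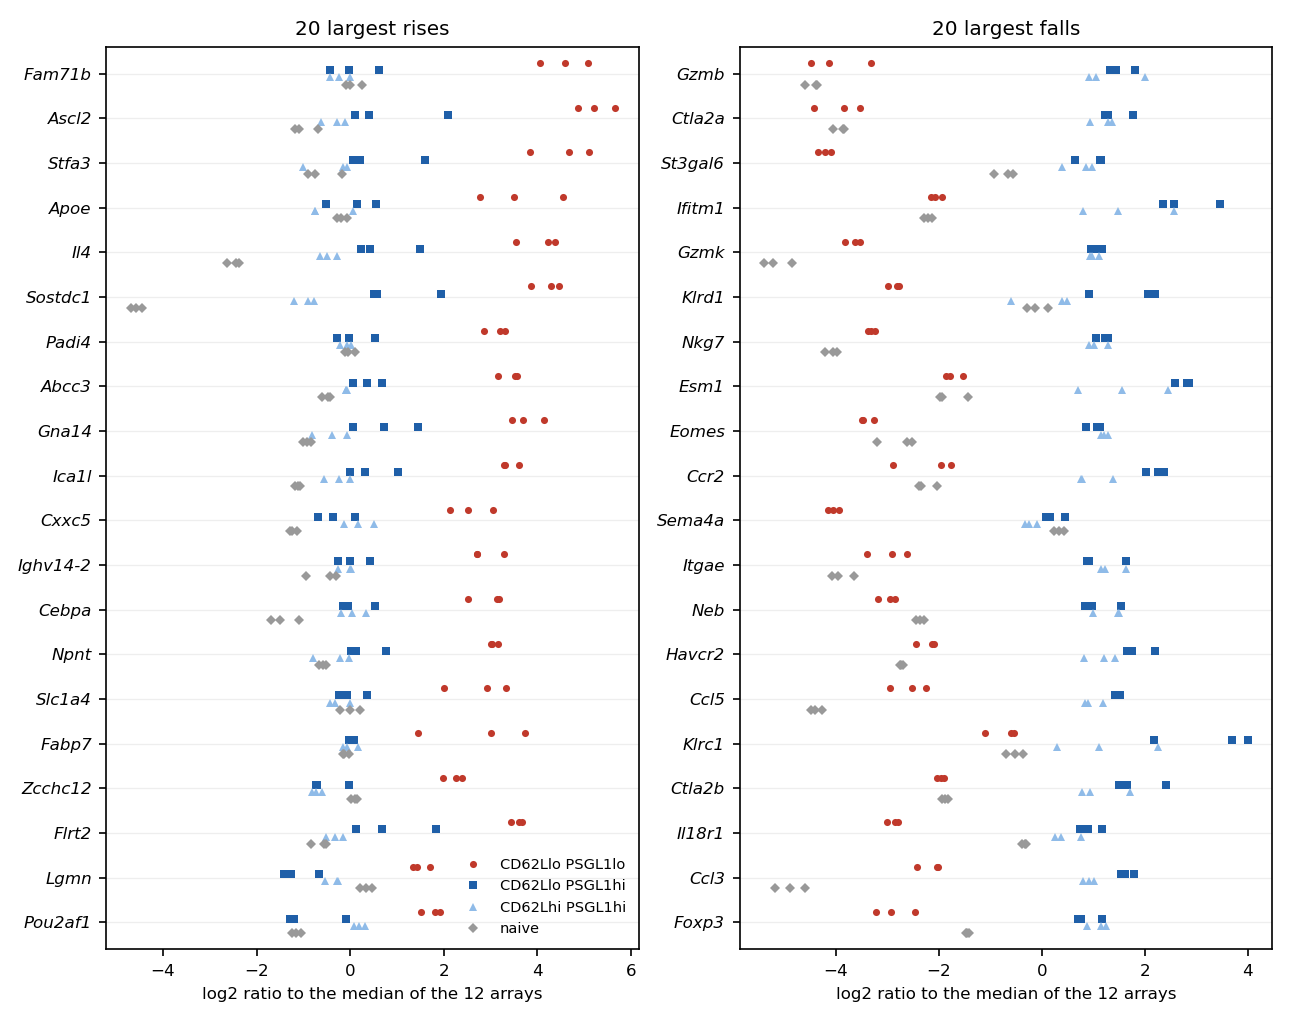
Log2 ratios in every array (horizontal axis, relative to the median of the 12 arrays) for the 20 largest rises (left) and the 20 largest falls (right), 3 points per population. All PSGL1lo points lie above all others in the 20 rises, while in 13 of the 20 falls naive points reach down to the PSGL1lo points or below.

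The order of the arrays within a population recurred over these genes. Among the 20 largest rises, PSGL1lo replicate 2 was the lowest of its 3 arrays in 18 genes and PSGL1hi replicate 2 the highest of its 3 in 18. Among the 20 largest falls, PSGL1hi replicate 2 was the lowest of its 3 in 15. In the rises the replicate 2 arrays of both populations therefore lay nearest to each other in most genes. Part of this order was general. Among the 16242 genes not called, PSGL1lo replicate 2 was the lowest of its 3 arrays in 56.5%. PSGL1hi replicate 2 was the highest of its 3 in 28.1% of them and the lowest in 33.5%. After quantile normalization, which forces all arrays to 1 distribution, all 40 genes were still called, and the 20 rises ranged from 1.60 to 3.66 in place of 2.60 to 4.53 on the log2 scale. It moved Sostdc1 to 1.74, Il4 to 2.15, Gna14 to 1.86, Stfa3 to 2.60 and Flrt2 to 1.60. Lgmn, Pou2af1 and Zcchc12 grew instead, to 3.60, 3.10 and 2.87. The median of the 20 rises went from 2.92 to 2.26.

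Genes of follicular helper cells and of B cell help were higher in PSGL1lo cells for 20 of 32 measured members and lower for 2. The shares of all genes were 4.55% and 6.17%, and the list's median log2 difference was 0.59 (0.01 over all genes). Counts of the lists that follow are read beside the same shares. The lists were chosen with earlier results of these data known, so such counts describe and test nothing. This one holds Ascl2, Il4, Sostdc1, Cebpa and Pou2af1, all among the 20 largest rises. The helper list's counts were 19 and 2 without PSGL1lo replicate 2, 22 and 2 with the replicate block and 14 and 2 after quantile normalization. The 2 lower members were Dlg5 and Tnfrsf4, with log2 differences of -1.32 ± 0.22 and -0.49 ± 0.13, and Sh2d1a was not called (-0.42 ± 0.20). Bcl6, the repressor at the centre of the follicular helper programme, was at 4.3, 4.06 and 4.89 in PSGL1lo and 1.05, 1.44 and 0.971 in PSGL1hi cells and rose by 1.95 ± 0.14 on the log2 scale. Its antagonist Prdm1 was at 0.391, 0.347 and 0.316 against 2.45, 2.08 and 2.05 and fell by 2.64 ± 0.14. The groups were apart in both genes. Of other helper-cell factors, Maf, which activates Il4 and Il21, had overlapping arrays (1.95, 1.45 and 1.68 against 1.08, 1.53 and 0.917). Its log2 difference of 0.55 ± 0.25 was not called, but it was called with the replicate block (adjusted p = 0.0337). No rise was called on the other 5 Maf probe sets (0.34, 0.16, 0.41, 0.14 and -0.04). Batf, an AP-1 family partner of IRF4, differed by 0.48 ± 0.16 (adjusted p = 0.0718; 0.015 with the replicate block, 0.00348 without PSGL1lo replicate 2), and Irf4 by 0.24 ± 0.10, not called.

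The cytokine genes Il4 and Il21 both rose. Il4, which drives switching to IgG1 and IgE, was at 18.9, 11.7 and 20.9 against 1.18, 2.82 and 1.35 in PSGL1hi, 0.824, 0.711 and 0.641 in CD62Lhi PSGL1hi and 0.194, 0.161 and 0.184 in naive cells, and rose by 3.33 ± 0.26 on the log2 scale (10.1-fold). Il21, which drives germinal centre and plasma cell responses, was at 2.87, 2.05 and 2.46 against 1.27, 1.61 and 1.05; the groups did not overlap, and the rise of 0.92 ± 0.20 (adjusted p = 0.00611) was not called after quantile normalization (adjusted p = 0.453). Il13, which lies next to Il4 and shares its Th2 control region, differed by 0.22 ± 0.12 and was not called, nor was Gata3, the Th2 factor, at 0.28 ± 0.13. Kif3a, the kinesin gene on the other side of Il4, rose by 1.56 ± 0.13 (adjusted p = 3.33e-07). Il2, the T cell growth factor gene, differed by 0.31 ± 0.15 and was not called.

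The tumour necrosis factor (TNF) family moved both ways, with 5 of 28 ligands and receptors higher and 10 lower. That was 53.6% called, beside 10.7% of all genes, and without PSGL1lo replicate 2 the counts were 5 and 7. Tnfsf8, which encodes CD30 ligand, was at 4.75, 5.93 and 6.78 against 1.24, 1.94 and 1.6 and rose by 1.88 ± 0.20 on the log2 scale; this call was lost after quantile normalization (adjusted p = 0.0769). Tnfsf13b, the gene of the B cell survival factor BAFF, was at 4.21, 3.15 and 2.93 against 1.29, 1.44 and 1.27 and rose by 1.34 ± 0.16, but its other 2 probe sets were not called. Tnfrsf13b, which encodes the BAFF receptor TACI, rose by 0.97 ± 0.13, and Tnfsf14, the gene of LIGHT, by 0.83 ± 0.14. Fasl, the ligand of the receptor that is mutant in this strain, was at 0.32, 0.254 and 0.342 against 3.44, 2.8 and 3.2 and fell by 3.37 ± 0.16 (10.3-fold), the largest fall of this list. Tnfsf4, the gene of OX40 ligand, fell by 1.10 ± 0.18 and Tnfsf10, the gene of TRAIL, by 0.99 ± 0.16. Cd40lg, the contact signal for B cells, was at 0.963, 1.09 and 1.23 against 0.962, 1.03 and 0.8, with overlapping arrays and a log2 difference of 0.24 ± 0.11 that was not called.

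Of 35 costimulatory and inhibitory receptors 4 rose and 12 fell (45.7% called, beside 10.7% of all genes). The inhibitory receptors typical of follicular helper cells were higher: Pdcd1 (PD-1) at 4.17, 2.85 and 4 against 1.33, 1.27 and 0.973 and Btla at 3.08, 2.54 and 2.67 against 1.01, 1.43 and 0.845, with log2 rises of 1.62 ± 0.15 and 1.37 ± 0.17. Of inhibitory receptors known from effector and exhausted cells, Havcr2 and Klrg1 fell. Havcr2, the gene of TIM-3, was at 0.233, 0.183 and 0.228 against 4.57, 3.15 and 3.38 and fell by 4.10 ± 0.16, and Klrg1, a receptor of terminally differentiated effector cells, was at 0.181, 0.195 and 0.24 against 2.7, 1.81 and 3.72 and fell by 3.69 ± 0.23. Lag3 (-0.40 ± 0.14) and Ctla4 (0.40 ± 0.13) were not called; Lag3 was called after quantile normalization (adjusted p = 0.0336) and Ctla4 with the replicate block (adjusted p = 0.0401). In the SLAM family, whose members act in contacts with B cells, Slamf6 rose by 0.57 ± 0.13 while Slamf7 fell by 2.74 ± 0.13, Slamf1 by 0.73 ± 0.13 and Cd84 by 0.44 ± 0.12. Icos was at 1.31, 1.02 and 0.977 against 1.2, 1.38 and 0.905, overlapping, with a log2 difference of -0.06 ± 0.17 that was not called.

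Receptors that place T cells in lymphoid tissue were called in 15 of 20 cases, 4 higher and 11 lower, with a median log2 difference of -0.75 (-0.55 without PSGL1lo replicate 2). The 4 higher genes included those of follicle and germinal centre positioning. Cxcr5, the receptor for the follicle chemokine CXCL13, was at 1.87, 1.4 and 2.14 against 0.954, 0.819 and 0.916 and rose by 0.99 ± 0.14. Cxcr4, the CXCL12 receptor, was at 2.71, 2.09 and 2.66 against 1.28, 1.08 and 0.897 and rose by 1.20 ± 0.15. S1pr2, a sphingosine 1-phosphate receptor that confines cells to germinal centres, was at 4.59, 2.64 and 3.59 against 1.17, 1.2 and 1.09 and rose by 1.61 ± 0.15. In all 3 every PSGL1lo array was above every PSGL1hi array.

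The lower receptors included other members of the sphingosine 1-phosphate family. S1pr1, needed for exit from lymphoid organs, was at 0.429, 0.802 and 0.39 against 0.831, 1.05 and 0.795, where PSGL1lo replicate 2 overlapped the PSGL1hi arrays. It fell by 0.79 ± 0.22 on the log2 scale (adjusted p = 0.0296), but quantile normalization removed the call (adjusted p = 0.203), as did leaving out PSGL1lo replicate 1 or 3 or PSGL1hi replicate 1 or 2 (adjusted p = 0.117, 0.156, 0.0617 and 0.134). Klf2, the factor that induces S1pr1, was at 0.234, 0.338 and 0.212 against 0.86, 0.936 and 0.877, apart in every array, and fell by 1.80 ± 0.15. S1pr4 fell by 0.82 ± 0.10, and S1pr5 by 1.40 ± 0.31, with a log2 difference of -0.86 without PSGL1hi replicate 3. Ccr7, the receptor for the T zone chemokines, was at 0.968, 1.01 and 0.994 against 0.858, 0.954 and 0.915, and Gpr183, an oxysterol receptor that guides cells to the T cell and B cell border, at 1.15, 1.19 and 1.19 against 0.942, 1.07 and 0.833. The PSGL1lo arrays of both genes lay slightly above the PSGL1hi arrays, but neither gene was called, with log2 differences of 0.12 ± 0.19 and 0.32 ± 0.12; Gpr183 was called on its other probe set and on the mean of both (0.38, adjusted p = 0.0234).

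Of 15 receptors for inflamed tissue 6 fell and none rose by limma (7 and 0 at an unadjusted p under 0.05). Ccr2, the monocyte chemoattractant receptor, was at 0.293, 0.256 and 0.135 against 4.07, 4.8 and 5.22 and fell by 4.43 ± 0.23 on the log2 scale (21.6-fold). Cxcr6 was at 1.1, 0.629 and 1.25 against 5.94, 3.6 and 5.64 and fell by 2.38 ± 0.25; CD62Lhi PSGL1hi cells, at 1.12, 0.695 and 0.904, were near the PSGL1lo cells. Ccr6, the receptor of Th17 cells, was at 0.523, 0.391 and 0.511 against 2.42, 1.86 and 1.83 and fell by 2.10 ± 0.18, and the Th1 receptor Cxcr3 fell by 1.70 ± 0.12. No array of these 4 receptors crossed between the populations.

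**Figure D3:**
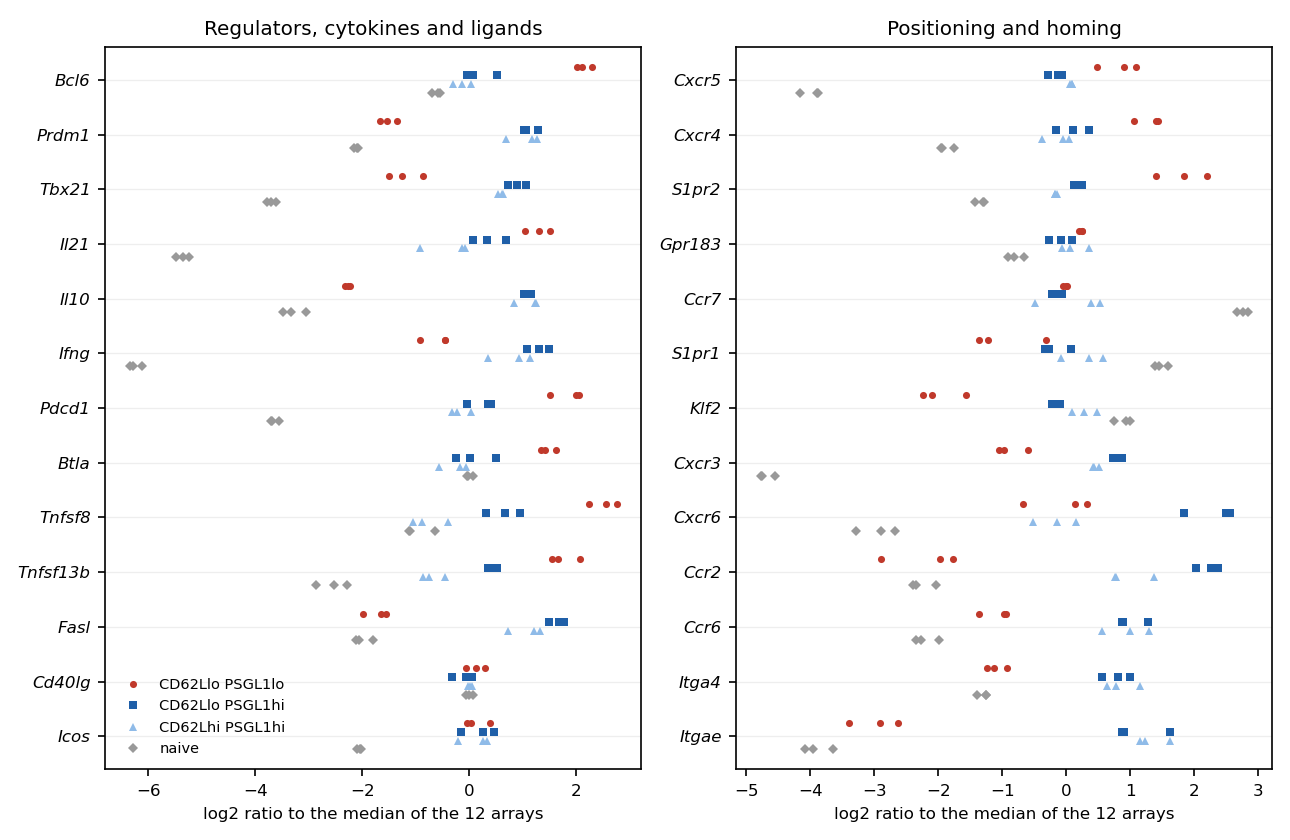
Log2 ratios in every array (horizontal axis) of 13 regulators, cytokines and ligands (left) and 13 positioning and homing genes (right), 3 points per population. Cxcr5, Cxcr4 and S1pr2 are highest in PSGL1lo cells, whereas the points of Cd40lg and Icos overlap between PSGL1lo and PSGL1hi cells.

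The Th1 and cytotoxic programme fell in 23 of 33 genes and rose in 3, with a median log2 difference of -1.77; the counts were 21 and 3 without PSGL1lo replicate 2. Tbx21, the gene of the Th1 factor T-bet, was at 0.417, 0.352 and 0.551 against 1.86, 1.66 and 2.1, and its relative Eomes at 0.0886, 0.105 and 0.0901 against 2.2, 1.82 and 2.1, with log2 differences of -2.11 ± 0.14 and -4.43 ± 0.15. Ifng, the interferon gamma gene, was at 0.73, 0.528 and 0.73 against 2.82, 2.48 and 2.12 and fell by 1.91 ± 0.18. In all 3 genes the populations were apart, yet for Tbx21 and Ifng the PSGL1lo ratios stayed above those of naive cells (0.0819, 0.0765 and 0.0728 and 0.0144, 0.0123 and 0.0128). Granzyme K (Gzmk) fell by 4.71 ± 0.13 and granzyme A (Gzma) by 2.21 ± 0.24. Perforin (Prf1) was not called on the probe set used (0.03 ± 0.09), while its other probe set fell by 4.16 ± 0.17 (adjusted p = 7.04e-10 over all probe sets).

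The 3 higher genes of this list were Stat4, which transmits interleukin 12 signals (0.72 ± 0.15), the repressor gene Zeb2 (0.79 ± 0.15) and Lamp1 (0.47 ± 0.12). Stat4 and Zeb2 were not called after quantile normalization (adjusted p = 0.063 and 0.281), none of the other 4 Zeb2 probe sets was called, and Lamp1, of lysosome membranes, was lost when single arrays were left out (adjusted p = 0.099 without PSGL1lo replicate 1). The chemokines made by such cells, Ccl3, Ccl4, Ccl5 and Xcl1, fell by 3.81 ± 0.14, by 3.71 ± 0.15, by 4.06 ± 0.15 and by 2.48 ± 0.40 on the log2 scale. Of 19 chemokines 6 fell and 1 rose (7 and 2 with the replicate block, 5 and 2 without PSGL1lo replicate 2), Cxcl10 (0.87 ± 0.20), with overlapping arrays, whose call was lost after quantile normalization (adjusted p = 0.471). Both chains of the interleukin 18 receptor fell, Il18rap by 3.04 ± 0.15. Id2, a helix-loop-helix inhibitor, was at 1.23, 0.669 and 0.807 against 1.38, 2.3 and 2.14, where PSGL1lo replicate 1 came close to PSGL1hi replicate 1, and fell by 1.12 ± 0.28, a call lost without PSGL1lo replicate 2 or 3 or PSGL1hi replicate 2 or 3 (adjusted p = 0.0621, 0.0555, 0.0716 and 0.0634).

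Of 22 NK cell receptor genes 7 were lower and 1 higher (36.4% called, beside 10.7% of all genes). Klrd1, the gene of CD94, was at 0.146, 0.126 and 0.143 against 4.21, 1.89 and 4.6, and its partner Klrc1 (NKG2A) at 0.659, 0.689 and 0.467 against 12.9, 4.51 and 16. Their log2 differences were -4.59 ± 0.29 and -4.03 ± 0.43, with PSGL1hi replicate 2 the lowest PSGL1hi array in each; the other Klrc1 probe set was not called. Klrb1a, a C-type lectin receptor of the Nkrp1 family, went the other way at 3.31, 2.86 and 4.28 against 1.06, 1.14 and 0.931 and rose by 1.73 ± 0.15. Of 9 markers of NK and innate lymphoid cells 4 were lower and none higher. The lower ones were Klrd1 and Klre1, already counted above, and Eomes and Gzma of the Th1 and cytotoxic list. The mean ratio of the 9 markers was 0.622 to 0.699 in PSGL1lo and 1.11 to 1.69 in PSGL1hi arrays. Ncr1, a defining NK marker, differed by -0.01 ± 0.10 and was not called. Nor were Klra8 (-0.03 ± 0.10), Tyrobp (0.04 ± 0.17), Il2rb (-0.29 ± 0.19) and Fcgr3 (-0.46 ± 0.18), and no ratio can be 0. Trgv1, a T cell receptor gamma variable segment, was at 0.673, 0.656 and 0.778 against 9.36, 5.51 and 9.1 (log2 difference -3.47 ± 0.20), with 1.43, 1.22 and 2.18 in CD62Lhi PSGL1hi cells, and it was the only one of 4 gamma-delta and innate-like markers called. Their part in the cytotoxic differences was not tested.

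Of 23 regulatory T cell genes 11 fell and 2 rose. Foxp3, the lineage factor, was at 0.182, 0.108 and 0.131 in PSGL1lo against 2.25, 1.62 and 1.69 in PSGL1hi and 0.375, 0.367 and 0.359 in naive cells, and fell by 3.74 ± 0.17 on the log2 scale. Il10, the immunosuppressive cytokine that many effector subsets make, was at 0.2, 0.215 and 0.207 against 2.12, 2.23 and 2.03 and fell by 3.36 ± 0.13. Itgae, the CD103 integrin chain that binds E-cadherin, was at 0.162, 0.0947 and 0.133 against 3.1, 1.88 and 1.84 and fell by 4.12 ± 0.21. PSGL1lo arrays were below every PSGL1hi array in these 3 genes. Entpd1 (CD39), which breaks down extracellular ATP, fell by 1.77 ± 0.17, and Il2ra, the high-affinity chain of the interleukin 2 receptor, by 1.17 ± 0.18, while Nrp1 (-0.34 ± 0.11) was called only with the replicate block, after quantile normalization and with a pseudocount (adjusted p = 0.0406 with the block and 0.00969 after quantile normalization). The 2 higher members were Izumo1r, which encodes folate receptor 4 and is also high on follicular helper cells (0.78 ± 0.11), and Nt5e (CD73, 0.53 ± 0.13), whose call was lost after quantile normalization (adjusted p = 0.0718) and without PSGL1lo replicate 1 or 2 or PSGL1hi replicate 1 or 3 (adjusted p = 0.0524, 0.0595, 0.0501 and 0.0898). Ikzf4, the Eos gene, was not called on the probe set used, and 2 of its other probe sets fell by 2.32 ± 0.23 and by 2.17 ± 0.17.

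Of 35 cytokine receptor genes 13 fell and 3 rose (45.7% called, beside 10.7% of all genes). The counts were 13 and 5 without PSGL1lo replicate 2 and 13 and 6 with the replicate block. The 35 genes include Csf1, which encodes a ligand, and Il1rn, which encodes a receptor antagonist. Neither was called in the main analysis. Il10ra fell by 2.23 ± 0.13 on the log2 scale (1 of its other 2 probe sets was called too), Ifngr1, the binding chain of the interferon gamma receptor, by 1.77 ± 0.13, Il12rb1 by 1.09 ± 0.13 and Il7r by 0.80 ± 0.13. Ifngr1 was at 0.367, 0.3 and 0.317 against 1.36, 1 and 1.01, below naive cells as well (0.997, 0.867 and 0.854). Of 23 genes of JAK-STAT signalling and its inhibitors 4 fell and 2 rose (26.1% called). The feedback inhibitor gene Cish was at 0.341, 0.304 and 0.377 against 1.87, 1.55 and 1.93 and fell by 2.39 ± 0.12, and Socs2 fell by 1.48 ± 0.16. On the other side, Il1r1, an interleukin 1 receptor chain, rose by 1.79 ± 0.15 on 1 of 2 probe sets, and Il6st, the gp130 chain of the interleukin 6 receptor, rose by 0.57 ± 0.14. Ptpn6, the phosphatase SHP-1 that damps such signals, rose by 0.76 ± 0.11. Il13ra1 was not called on the probe set used (0.33 ± 0.11), but 4 of its other probe sets rose by 2.06 to 2.57.

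In T cell receptor signalling 9 of 41 genes fell and 3 rose (29.3% called, beside 10.7% of all genes). The adaptor genes Trat1 and Grap2 fell by 2.44 ± 0.18 (log2 difference -1.52 as the mean of its probe sets) and by 1.71 ± 0.17 on the log2 scale (the latter on 1 of 2 probe sets), and Rasgrp2, an activator of RAP1 in integrin signalling, was at 0.252, 0.287 and 0.258 against 0.755, 0.792 and 0.951 and fell by 1.64 ± 0.11. Zap70, the kinase recruited to the receptor, rose by 0.59 ± 0.12. Of 46 early response and feedback genes 7 rose and 4 fell (23.9% called). The counts were 9 and 4 without PSGL1lo replicate 2 and 11 and 5 with the replicate block. Among the rises were the E3 ligase gene Rnf128 (GRAIL, 1.39 ± 0.22, lost after quantile normalization with adjusted p = 0.28), the calcineurin inhibitor Rcan1 (1.16 ± 0.15 on 1 of 2 probe sets) and the ERK phosphatase Dusp6 (0.81 ± 0.15). Ier3, a stress and survival response gene, was at 0.213, 0.27 and 0.243 against 2.05, 2.4 and 2.08 and fell by 3.17 ± 0.18. Nr4a2, a nuclear receptor induced by T cell receptor signals, was not called on the probe set used, and 2 other probe sets fell by 2.06 ± 0.24 and by 2.23 ± 0.23.

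Of 65 transcription factors of various families, Klf2, Id2, Id3, Zeb2 and other members of other lists among them, 8 rose and 8 fell. That was 24.6% called, beside 10.7% of all genes. The counts were 9 and 6 without PSGL1lo replicate 2 and 6 and 9 after quantile normalization. Vdr, the vitamin D receptor gene, was at 8.16, 7.24 and 9.45 against 1.18, 3 and 1.66 and rose by 2.19 ± 0.27 on the log2 scale, but quantile normalization removed the call (adjusted p = 0.197); PSGL1hi replicate 2 was its highest PSGL1hi array. Spib, an ETS factor of B cells and dendritic cells, was at 2.26, 1.35 and 1.99 against 0.615, 0.847 and 0.864 and rose by 1.25 ± 0.20. Id3, an E protein inhibitor, was at 1.53, 1.22 and 2.09 against 0.934, 0.805 and 0.799 and rose by 0.90 ± 0.18. Hopx, a homeobox-only protein of Th1 effector cells, fell by 2.11 ± 0.15, and Klf6 by 1.06 ± 0.15. Of the naive-cell factors, Lef1 rose by 0.58 ± 0.10 (1.71 after quantile normalization), Satb1 fell by 1.31 ± 0.18 (2 of its other 4 probe sets were called too), and Foxp1 was not called (0.48 ± 0.15; adjusted p = 0.00845 with the replicate block and 0.0433 after quantile normalization). Runx3 was not called on the probe set used, and another probe set fell by 3.19 ± 0.15.

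Selectin ligand enzymes, which make PSGL1 able to bind, fell in 8 of 27 cases and rose in 3 (40.7% called, beside 10.7% of all genes). The counts were 6 and 3 without PSGL1lo replicate 2. The falls touched several steps of the pathway. St3gal6, a sialyltransferase of the sialyl Lewis X structure, fell by 5.20 ± 0.16 on the log2 scale (1 of its other 4 probe sets was called too), Gcnt1, which starts the core 2 branch, by 1.51 ± 0.17, and Fut7, the fucosyltransferase, by 0.58 ± 0.17. Tpst2, which sulfates the tyrosines of PSGL1, was at 0.478, 0.386 and 0.496 against 1.52, 1.44 and 1.54, without overlap, and fell by 1.73 ± 0.12. The rises were of St3gal1, which caps core 1 chains (0.97 ± 0.17), St3gal2 (0.64 ± 0.09) and B3gnt2, which extends poly-lactosamine (0.91 ± 0.18). Among 35 integrin and adhesion genes 9 fell and 1 rose (28.6% called), or 8 and 3 without PSGL1lo replicate 2. Itga4, the VLA-4 chain, was at 0.529, 0.425 and 0.459 against 1.99, 1.47 and 1.76 and fell by 1.88 ± 0.14, and Itga6 fell by 1.23 ± 0.14.

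S100 proteins, annexins and galectins, many of which rise as T cells become effectors, fell in 11 of 28 cases and rose in none by limma (9 and none without PSGL1lo replicate 2; at an unadjusted p under 0.05, 13 were lower and 0 higher). S100a4 was at 0.563, 0.417 and 0.63 against 2.01, 1.83 and 1.96, S100a6 fell by 1.81 ± 0.18 on the log2 scale, and Lgals3 (galectin 3) was at 0.691, 0.234 and 0.389 against 2.05, 1.31 and 1.97 and fell by 2.13 ± 0.29. Anxa6 fell by 1.92 ± 0.13, and Anxa1 by 2.23 ± 0.25 on 1 of 2 probe sets. In S100a4 and Lgals3 PSGL1lo replicate 2 was the lowest PSGL1lo array. Of 37 proteases and inhibitors 14 fell and 6 rose (54.1% called, beside 10.7% of all genes). Adam19, a membrane metalloprotease, was at 0.205, 0.157 and 0.233 against 1.89, 1.86 and 2.38 and fell by 3.38 ± 0.14, while Ctsz (cathepsin Z) rose by 1.05 ± 0.16 and Timp2, a metalloprotease inhibitor, by 1.12 ± 0.14. Ctsl (cathepsin L), a lysosomal protease, was not called on the probe set used, and its other probe set rose by 3.93 ± 0.37.

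In the type I interferon response 13 of 39 genes fell and 1 rose (35.9% called, beside 10.7% of all genes). The counts were 15 and 2 with the replicate block. The median log2 difference was -0.23 (-0.09 without PSGL1lo replicate 2). Ifit3 was at 0.255, 0.184 and 0.255 in PSGL1lo, 0.923, 0.926 and 1.28 in PSGL1hi and 3.45, 3.22 and 2.94 in naive cells and fell by 2.17 ± 0.16. The membrane proteins that block viral entry fell together: Ifitm1 was at 0.239, 0.225 and 0.26 against 5.97, 5.12 and 11.1, and Ifitm2 and Ifitm3 fell by 1.99 ± 0.33 and by 2.05 ± 0.36. In these 3 genes PSGL1hi replicate 3 was the highest array. Mx1 fell by 0.77 ± 0.18 and Irf7, a factor that amplifies the response, by 0.46 ± 0.11.

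Among metabolic genes, the count for glycolysis and hypoxia depended on 1 array. Of 35 glycolysis and hypoxia genes 8 rose and 1 fell (25.7% called, beside 10.7% of all genes). Without PSGL1lo replicate 2, however, 15 rose and 1 fell, and 10 rose and 4 fell with the replicate block. The 35 genes include Pigq, a gene of membrane anchor synthesis and not of glycolysis, which was not called (0.09 ± 0.11). Hif1a, the hypoxia factor gene, was at 2.7, 1.98 and 2.46 against 1.12, 1.27 and 0.933 and rose by 1.10 ± 0.15 on the log2 scale. The glycolytic enzyme gene Tpi1 was at 3.39, 1.73 and 3.14 against 1.06, 0.836 and 1.04 and rose by 1.44 ± 0.21, and Bnip3, a mitochondrial protein induced by HIF1A, rose by 1.60 ± 0.20. The populations were apart in each, with PSGL1lo replicate 2 lowest among the PSGL1lo arrays. In oxidative phosphorylation 1 of 44 genes was called, lower, and without that array 7 were higher and none lower. Genes of amino acid transport, amino acid synthesis and translation control rose for 7 of 30 members and fell for none by limma. The counts were 8 and 3 with the replicate block and 9 and 3 at an unadjusted p under 0.05. Psat1, of serine synthesis, rose by 1.15 ± 0.15 and Slc43a1, a transporter of large neutral amino acids, by 0.72 ± 0.13. Cholesterol and fatty acid synthesis had 7 of 34 genes lower and 3 higher, with Sqle (squalene epoxidase) falling by 1.20 ± 0.12.

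Of 19 purine-related genes 5 fell and 3 rose (42.1% called, beside 10.7% of all genes). Ada, adenosine deaminase, was at 0.176, 0.159 and 0.228 against 1.23, 1.1 and 0.957 in PSGL1hi and 2.77, 2.84 and 2.54 in naive cells and fell by 2.55 ± 0.13 on the log2 scale. Dpp4 (CD26), which holds adenosine deaminase at the cell surface, fell by 1.26 ± 0.16, and P2rx7, the ATP-gated channel, rose by 0.57 ± 0.12. Regulators of G protein signalling included Rgs1, which dampens chemokine receptors and fell by 2.36 ± 0.16, and Rgs10, at 1.68, 1.31 and 1.92 against 0.508, 0.693 and 0.437, which rose by 1.59 ± 0.16 (2.79 after quantile normalization). In Rgs10 the PSGL1lo arrays were near the naive arrays (1.59, 1.54 and 1.44) and the PSGL1hi arrays near those of CD62Lhi PSGL1hi cells (0.508, 0.423 and 0.542).

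Cell cycle genes were mostly uncalled, but 18.8% of replication and 21.6% of mitotic genes were called, beside 10.7% of all genes. The mitotic genes had a median log2 difference of -0.33 (-0.17 without PSGL1lo replicate 2). Of 32 replication genes 5 were lower and 1 higher (10 and 1 with the replicate block, 3 and 1 without PSGL1lo replicate 2), and of 37 mitotic genes 6 were lower and 2 higher (11 and 2 with the block). Mki67, the proliferation marker Ki-67, was at 0.591, 0.625 and 0.853 in PSGL1lo, 1.03, 1.03 and 1.38 in PSGL1hi and 2.53, 3.02 and 3.62 in CD62Lhi PSGL1hi cells and fell by 0.74 ± 0.16 on the log2 scale. Prc1, of the central spindle, fell by 1.62 ± 0.18, and E2f2 by 1.09 ± 0.14. Tubb2b, a beta-tubulin, was at 1.77, 1.22 and 1.54 against 0.333, 0.366 and 0.274 and rose by 2.21 ± 0.16 (3.61 after quantile normalization), and CD62Lhi PSGL1hi cells, at 3.15, 2.46 and 2.23, were higher than both. Gadd45a, a growth arrest gene, was at 1.94, 1.83 and 1.65 against 0.697, 0.927 and 0.566 and rose by 1.33 ± 0.19. Of 35 survival and death genes 9 fell and 1 rose (28.6% called). The BH3-only gene Bcl2l11 (BIM) fell by 0.69 ± 0.11, Ripk3, of necroptosis, by 0.72 ± 0.11, and Bcl2 was not called (0.25 ± 0.10).

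**Figure D4:**
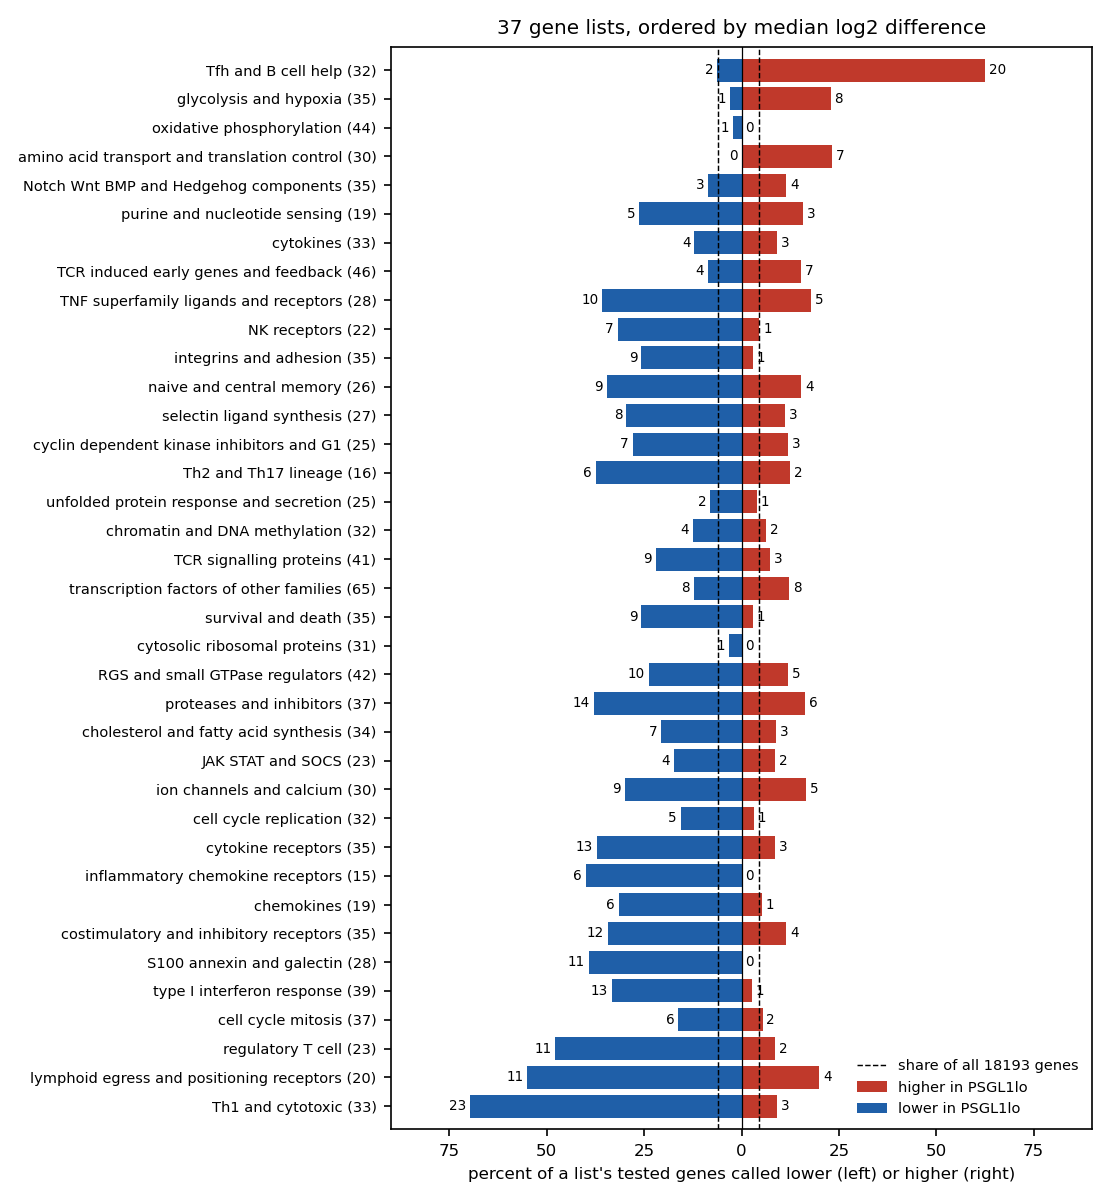
Percent of each of 37 gene lists called lower (bars to the left) or higher (bars to the right) in PSGL1lo cells, with counts at the bar ends, tested genes in brackets and dashed lines at the shares of all genes (6.17% lower, 4.55% higher). The helper list has 20 of 32 genes higher and the Th1 and cytotoxic list 23 of 33 lower.

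Markers of other cells are read beside the 10.7% of all genes that were called: 44.4% of the NK and innate lymphoid markers described above, 29.4% of B cell, 15.4% of stromal and endothelial, 8.3% of macrophage and neutrophil and 8.3% of erythroid markers. Of 17 B cell genes 3 were higher and 2 lower, or 5 and 2 without PSGL1lo replicate 2 and with the replicate block. Fcmr, the IgM Fc receptor gene, rose by 1.82 ± 0.16, H2-Ab1, a class II chain, by 0.80 ± 0.16 and Spib as above, whereas Cd79b fell by 1.03 ± 0.11 and Ms4a1 (CD20) by 1.51 ± 0.26, the latter not called after quantile normalization (adjusted p = 0.0525). The defining B cell genes Cd79a and Pax5 differed by 0.02 ± 0.12 and 0.15 ± 0.12 and were not called. By limma none of 7 plasma cell genes was called (1 higher and 1 lower at an unadjusted p under 0.05), nor was any of 15 dendritic cell genes (2 and 1), of which 2 were higher without PSGL1lo replicate 2. Fscn1 of the dendritic list differed by 0.07 ± 0.11 on the probe set used, but another of its probe sets was called and rose by 2.83 ± 0.46. Macrophage and neutrophil genes had 1 higher and 1 lower of 24, and the erythroid list 1 lower of 12. In the stromal and endothelial list 2 of 13 were higher, Pecam1 (1.20 ± 0.16; 2.41 after quantile normalization), which T cells also express, and Kdr (0.41 ± 0.10). Of 8 T cell genes 1 was called: Thy1, a surface glycoprotein of T cells, was at 0.297, 0.232 and 0.469 against 1.33, 1.17 and 1.35 and fell by 2.01 ± 0.18, while Cd3e differed by -0.10 ± 0.09 and was not called. Cd8a differed by -0.10 ± 0.10, not called.

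Position on the chromosome was set beside the largest changes, using the order of tested protein-coding genes in RefSeq. The 20 largest falls had 37 nearest neighbours that were not themselves among the 20, of which 14 were lower and none higher, beside 6.17% and 4.55% of all genes. Gzma, Gzmk, Esm1 and Snx18 follow each other and were all lower, with log2 differences of -2.21 ± 0.24, -4.71 ± 0.13, -4.48 ± 0.29 and -0.89 ± 0.16. Il18r1 and Il18rap, the 3 neighbouring Ifitm genes, and Ccl3 and Ccl4 were other runs of lower genes. Several of these runs are families of like sequence, where a probe set may also bind a relative. Nearest neighbours of the rises, 38 for the 19 placed genes, were higher in 6 cases and lower in none. Fam71b and Havcr2, among the largest changes in opposite directions, are separated in this order by Med7 alone, which was not called (0.33 ± 0.14).

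**Figure D5:**
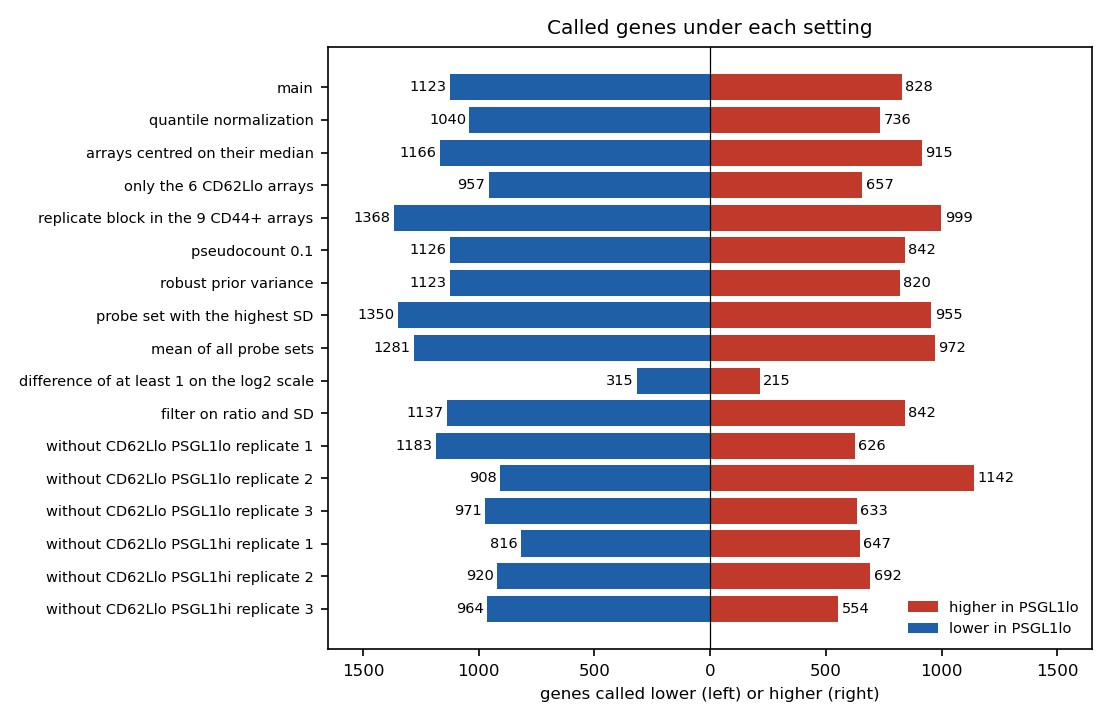
Number of genes called lower (bars to the left) and higher (bars to the right) in PSGL1lo cells in the main analysis and in each alternative setting. Lower genes outnumber higher ones in every setting shown except without PSGL1lo replicate 2, where 1142 are higher and 908 lower.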

How the data were processed

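RNA of 12 sorted samples was measured on Affymetrix mouse arrays (3 arrays for each of 4 populations). The deposited values are linear ratios: the authors divided each probe set's signal by its median over the 12 arrays. The submitters' processing notes name MAS5 and give no version. Brightness and detection calls were not analysed here, so the precision rests on the number of arrays (median standard error 0.118 on the log2 scale). All value columns were used (0 left out).

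Of 45101 probe sets, 34945 carried 1 gene symbol in the platform annotation, 932 several and 9160 none. One probe set per gene was chosen by its annotation, without regard to values, giving 18193 genes. For 24 genes not called on that probe set, another was called with a log2 difference of at least 2 in size, 12 higher and 12 lower. Log2 ratios of all 12 arrays entered 1 limma model (version 3.58.1, R 4.3.3) holding a mean for each of the 4 populations, and p-values were adjusted over all genes (Benjamini-Hochberg, threshold 0.05). On simulated data of the same size the script recovered 53.7% of 67 genes changed by 0.5 on the log2 scale, 97% of 67 changed by 1 and 100% of 66 changed by 2, with 11 false calls among 178. The simulated noise was independent between arrays, without the shift of PSGL1lo replicate 2 or correlated deviations. Far fewer genes were changed there than were called here, so these rates may not hold for the real arrays.

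Replicate numbers of the titles were taken to pair the samples. Deviations of PSGL1lo and PSGL1hi arrays of one number correlated at 0.368, 0.153 and 0.129, and those of unlike numbers at -0.318 to 0.156. Between PSGL1lo and CD62Lhi PSGL1hi arrays, like numbers correlated at 0.27, 0.128 and 0.27 and unlike numbers at -0.214 to -0.03. Between PSGL1hi and CD62Lhi PSGL1hi arrays, like numbers correlated at 0.342, 0.288 and 0.448 and unlike numbers at -0.287 to -0.04. The pairing was therefore visible in the 9 CD44+ arrays, least clearly between PSGL1lo and PSGL1hi arrays. The main fit does not use the pairing. Values with that block, fitted in the 9 CD44+ arrays, are printed beside calls they change. Genes named are the 20 largest rises and falls without overlap, up to 4 called members a direction and 2 uncalled members of each list, a set of helper-cell genes, and, added after their values were seen, some further list members, markers, chromosomal neighbours and genes whose probe sets disagree. The gene lists and the comparison were chosen with earlier results of these data known. Promoter sequences and gene order came from RefSeq (GRCm38.p6). Alternatives covered scaling, arrays fitted, block, pseudocount, prior variance, probe set, call rule, filter and leaving out arrays.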

Additional observations from a re-analysis of the deposited data

Results flagged for a closer look

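Probe sets with no gene in the platform annotation were outside the comparisons above. Of 9160 such probe sets 275 differed between PSGL1lo and PSGL1hi cells at an adjusted p under 0.05 (limma, 3% of them), with 123 higher and 152 lower in PSGL1lo cells. They are unnamed here, which does not mean that they lie outside genes.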

How the results depend on the processing

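The number of called genes was 1951 and ran from 1463 (without PSGL1hi replicate 1) to 2050 (without PSGL1lo replicate 2) when single arrays were left out, with 554 to 1142 higher and 816 to 1183 lower. Requiring a difference of at least 1 on the log2 scale left 530 genes, 215 higher and 315 lower. The replicate block, fitted without the naive arrays so that 2 choices changed together, called 2367 genes, 999 higher and 1368 lower, and kept 1930 of the 1951. Quantile normalization called 1776 and kept 1629, and the probe set with the highest SD called 2305 and kept 1759. Lower calls outnumbered higher ones in every setting but 1, leaving out PSGL1lo replicate 2, where the higher share of calls went from 42.4% to 55.7%. Among 243 called genes named by the rule, 188 were called in all settings other than the log2 minimum, and no named gene reversed a call. Array number and the 3 arrays of each population limit what small differences can show.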
